A study of Mus musculus with 16 samples.

Results

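ISG15 is a small protein built of ubiquitin-like domains that interferons induce. Like ubiquitin it is joined to target proteins by a cascade: Uba7 is the activating enzyme (E1), Ube2l6 the conjugating enzyme (E2) and, in the mouse, Herc6 the main ligase (E3). Usp18 takes ISG15 off its targets again, and it also binds the type I interferon receptor, where it dampens further signalling. ISG15 is also released from cells, and in lymphocytes it acts as a cytokine. The genes described here are these 5, Isg15, Uba7, Ube2l6, Herc6 and Usp18, picked by symbol from the 36722 genes of the deposited table. All 5 were found and all 5 were among the 13385 genes with enough signal to be tested.

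The tissue was the lumbar dorsal root ganglion (DRG, L3 to L5) of C57BL/6 mice, where sensory neurons have their cell bodies, among glia and immune cells. All mice had received 20 µl of 2% carrageenan in the paw, a model of persistent inflammatory pain, and 6 days later an intrathecal injection. The groups were IL4-10 FP, in which the anti-inflammatory cytokines IL4 and IL10 are fused (1 µg, n = 6), IL4+IL10, the same cytokines unlinked (0.5 µg each, n = 5), and vehicle (PBS, n = 5); ganglia were taken 6 hours after the injection. There was no group without carrageenan. The labels do not say that each library came from a separate mouse, so the p-values measure the spread between these libraries.

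The members were chosen with earlier results of these data known, and those of the fusion protein libraries are assumed to have been used. Comparisons that use those libraries are therefore given as descriptions, without a p-value for any member. The comparison of IL4+IL10 with vehicle has none of those libraries in its means and was tested. They do enter the estimate of spread in the fit of all 16 libraries. The tested comparison shares the vehicle libraries with 1 of the other comparisons and the IL4+IL10 libraries with the other. If its earlier results were used as well, its p-values are not independent of the choice. Values are scaled values, whole numbers decoded from the deposited variance-stabilised table; they are not read counts, the read depth is unknown, and genes without signal mostly stand at 1, while 34 entries of the table stand at 0. They summed to between 16707007 and 20879857 per library. Differences are given on the deposited log2 scale, which compresses differences between low values.

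The genes lie on 4 chromosomes. In build GRCm38, Isg15 (ENSMUSG00000035692) lies on chromosome 4 from 156199424 to 156200818 on the minus strand, with 756 exonic bases in 2 exons. Uba7 (ENSMUSG00000032596) lies on chromosome 9 from 107975505 to 107984060, with 6692 exonic bases over all its annotated transcripts. Ube2l6 (ENSMUSG00000027078) lies on chromosome 2 from 84798828 to 84810335, with 1996 exonic bases. Herc6 (ENSMUSG00000029798) lies on chromosome 6 from 57581000 to 57664632, with 9292 exonic bases. Usp18 (ENSMUSG00000030107) is on the same chromosome, from 121245906 to 121270917, with 2790 exonic bases. The last 4 are on the plus strand. Some exonic bases are shared with other annotated genes: 13.7% of those of Herc6 with the transcript Gm45193 and 3.48% of those of Uba7 with Gm20661, which averaged a scaled value of 1.31, both on the same strand, and 4.44% of those of Usp18 with the lincRNA Gm44148 on the opposite strand. Whether the counting used strand is not given in the sources used here.

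Promoter windows of 300 bases (250 before to 50 after the start, RefSeq, build GRCm38.p6) were at hand for 4 members, Isg15, Uba7, Ube2l6 and Herc6. They are shown for Isg15, which had the largest difference with IL4-10 FP, and for Ube2l6, which had the smallest among the members called there. Capitals mark matches to the core of the interferon-stimulated response element, spelled GAAA, any pair of bases and GAAA again, searched on both strands.
Isg15, chr4:156200769-156201068, minus strand: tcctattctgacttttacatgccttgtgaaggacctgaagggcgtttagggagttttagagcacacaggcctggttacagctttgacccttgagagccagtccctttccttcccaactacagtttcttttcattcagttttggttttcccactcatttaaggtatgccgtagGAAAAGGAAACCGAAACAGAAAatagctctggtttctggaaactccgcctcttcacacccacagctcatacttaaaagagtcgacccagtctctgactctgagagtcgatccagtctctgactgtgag
Ube2l6, chr2:84798578-84798877, plus strand: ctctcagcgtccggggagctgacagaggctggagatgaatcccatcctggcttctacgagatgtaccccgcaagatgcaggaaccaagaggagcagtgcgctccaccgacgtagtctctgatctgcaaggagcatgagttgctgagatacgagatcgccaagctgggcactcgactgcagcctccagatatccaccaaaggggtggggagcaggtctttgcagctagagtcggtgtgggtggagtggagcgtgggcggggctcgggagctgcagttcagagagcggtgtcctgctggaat
The Isg15 window held 3 overlapping matches, GAAAAGGAAA, GAAACCGAAA and GAAACAGAAA, all on the sense strand of the gene, which begin 78, 72 and 66 bases before the start. No match was found in the windows of Ube2l6, Uba7 and Herc6. Of 32851 promoter windows in the table, 3.44% held the motif. The gamma-activated site TTCNNNGAA was found in 0 of the 4 member windows and in 8.3% of all windows. The Ube2l6 window had a GC content of 59.7% with 15 CpG dinucleotides, and the Isg15 window 46.3% with 6.

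Isg15, the modifier itself, separated the groups most widely. Its scaled values were 512, 534, 640, 643, 703 and 767 in the IL4-10 FP libraries, 50, 56, 81, 83 and 96 in the IL4+IL10 libraries, and 48, 55, 57, 62 and 92 in the vehicle libraries. Every IL4-10 FP library stood above every other library, while the IL4+IL10 and vehicle values overlapped. The mean was 633 ± 97.4 (SD, n = 6) with IL4-10 FP and 62.8 ± 17.1 (n = 5) with vehicle, a ratio of 10.1, and it was 73.2 ± 19.4 (n = 5) with IL4+IL10. IL4-10 FP differed by 2.19 ± 0.10 (log2, SE) from vehicle, the 3rd largest of the 13385 differences, and by 2.09 ± 0.10 from IL4+IL10. On the scale of log2 of the scaled value plus 1, where low values are not compressed, these differences were 3.33 and 3.12. In whole ganglia, more expressing cells and more RNA per cell cannot be told apart.

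Usp18, the protease that removes ISG15, came next. It had scaled values of 249, 287, 354, 366, 367 and 406 with IL4-10 FP, 40, 63, 66, 90 and 94 with IL4+IL10, and 42, 71, 101, 101 and 159 with vehicle. The IL4-10 FP libraries again lay above all others, and the other groups overlapped. IL4-10 FP averaged 338 ± 58.4 and vehicle 94.8 ± 43.5, a ratio of 3.57, with IL4+IL10 at 70.6 ± 22.0. The log2 difference of IL4-10 FP was 1.21 ± 0.14 from vehicle and 1.39 ± 0.14 from IL4+IL10, or 1.93 and 2.29 on the scale of log2 of the scaled value plus 1.

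Herc6, the ligase, was higher with IL4-10 FP but, relative to its mean, varied most within that group. Its scaled values there were 1131, 793, 551, 612, 382 and 471 in replicates 1 to 6. They were 198, 203, 242, 265 and 273 with IL4+IL10 and 222, 259, 328, 341 and 384 with vehicle. Replicate 5 of IL4-10 FP, at 382, lay just under the highest vehicle library, and the other 5 lay above all vehicle libraries; all 6 lay above all IL4+IL10 libraries. The means were 657 ± 271 with IL4-10 FP and 307 ± 65.3 with vehicle, a ratio of 2.14, and 236 ± 34.6 with IL4+IL10. The log2 difference of IL4-10 FP was 0.82 ± 0.18 from vehicle and 1.08 ± 0.18 from IL4+IL10. Without replicate 1 of IL4-10 FP the difference from vehicle was 0.67 ± 0.13.

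**Figure D1:**
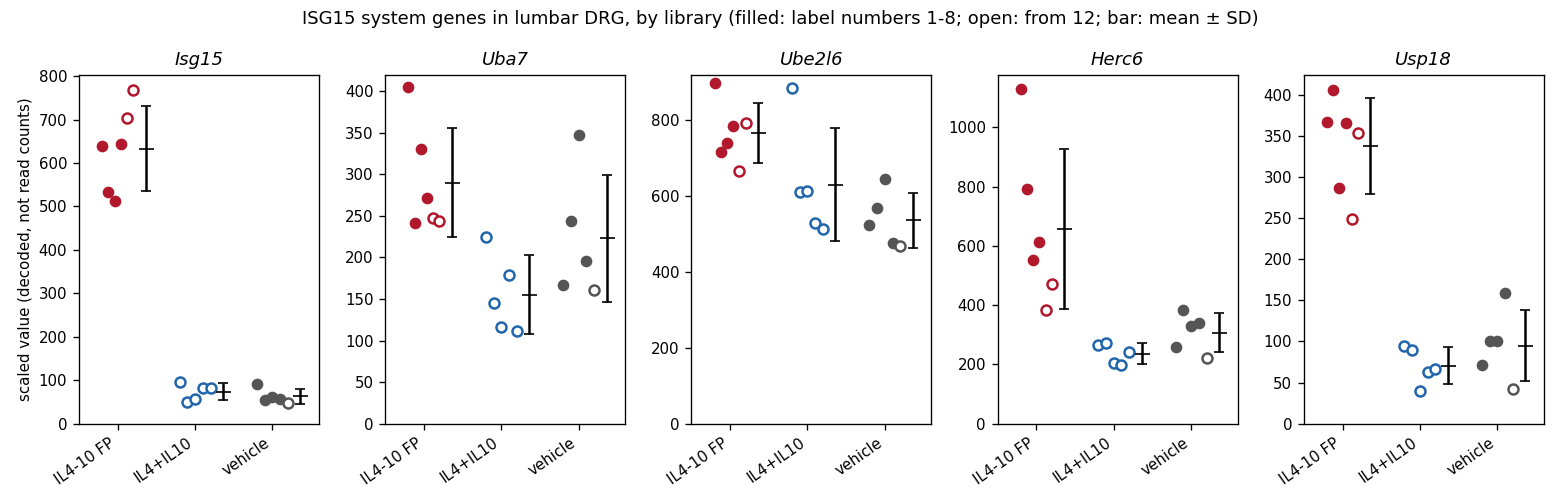
Scaled values (vertical axes, from 0, decoded from the deposited table) of the 5 genes in each library of IL4-10 FP, IL4+IL10 and vehicle; filled points have label numbers 1 to 8, open points 12 and above, and bars give mean ± SD. The IL4-10 FP points of Isg15 (512 to 767) and Usp18 (249 to 406) lie above all others, those of Herc6 overlap vehicle in 1 library, and those of Uba7 overlap vehicle widely.

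The E2 and the E1 differed less. Ube2l6 had scaled values of 665, 716, 738, 783, 792 and 897 with IL4-10 FP, 513, 528, 609, 613 and 883 with IL4+IL10, and 468, 475, 524, 568 and 643 with vehicle. All IL4-10 FP libraries lay above all vehicle libraries, but 1 IL4+IL10 library, replicate 1 at 883, reached the IL4-10 FP range. IL4-10 FP averaged 765 ± 79.5 and vehicle 536 ± 72.4, a ratio of 1.43, with IL4+IL10 at 629 ± 149. The log2 difference of IL4-10 FP was 0.44 ± 0.10 from vehicle and 0.26 ± 0.10 from IL4+IL10, and the second was 0.37 ± 0.08, past the threshold for all genes, without IL4+IL10 replicate 1.

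Uba7, the E1, had scaled values of 242, 244, 248, 272, 330 and 405 with IL4-10 FP, 111, 116, 145, 179 and 225 with IL4+IL10, and 161, 167, 196, 244 and 347 with vehicle. The IL4-10 FP libraries lay above all IL4+IL10 libraries but overlapped vehicle, where 1 of 6 exceeded the highest vehicle value. The means were 290 ± 65.3 with IL4-10 FP, 155 ± 47.5 with IL4+IL10 and 223 ± 76.7 with vehicle. The log2 difference of IL4-10 FP was 0.28 ± 0.14 from vehicle and 0.61 ± 0.14 from IL4+IL10.

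By the threshold used for all genes (limma, adjusted p under 0.05 over the whole table), 4 of 5 members were called higher with IL4-10 FP than with vehicle, all but Uba7, beside 12% of all tested genes in that direction, and 3 of 5 (Isg15, Usp18 and Ube2l6) did not overlap vehicle, beside 7.76% of tested genes above all vehicle libraries. Against IL4+IL10, 4 of 5 were called higher with IL4-10 FP, all but Ube2l6, beside 7.35% of tested genes, and the same 4 did not overlap IL4+IL10, beside 3.09%. The median log2 difference of the members was 0.82 from vehicle, where that of all tested genes was -0.02, and 1.08 from IL4+IL10, where it was -0.09. Nothing is read from these counts, since the choice of members is assumed to have used these libraries. The call of Uba7 against IL4+IL10 ended when a term for label numbers from 12 was added (0.43 ± 0.17) and when trends over GC content and gene length were taken out (0.51 ± 0.17), while against vehicle Uba7 was called with those trends taken out (0.47 ± 0.17) and without vehicle replicate 3 (0.41 ± 0.13). The call of Ube2l6 against vehicle ended among label numbers from 12 alone, at 0.53 ± 0.21 with 1 vehicle library.

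IL4+IL10 against vehicle asks whether the unlinked cytokines moved these genes. In the limma fit 0 of 5 members passed, and 1, Uba7, had an unadjusted p under 0.05. Of all tested genes 36.5% passed in this comparison, and 45.9% had an unadjusted p under 0.05. All 5 members overlapped between these groups, beside 15.1% of tested genes with IL4+IL10 above and 7.91% with it below all vehicle libraries. The difference was 0.10 ± 0.11 for Isg15 (adjusted p = 0.488), -0.19 ± 0.15 for Usp18 (0.34), -0.26 ± 0.19 for Herc6 (0.3), 0.18 ± 0.11 for Ube2l6 (0.207) and -0.33 ± 0.15 for Uba7 (0.0922), each an adjusted p of limma over all tested genes. For Herc6 the spread of the IL4-10 FP libraries widened the SE, and a fit of the IL4+IL10 and vehicle libraries alone gave -0.26 ± 0.11 (adjusted p = 0.0649, of a range of 0.0649 to 0.907 over its alternatives). The members' median was -0.19 and that of all tested genes 0.06. Without IL4+IL10 replicate 1, in which Ube2l6 and Uba7 were at their group's highest, Uba7 differed by -0.42 ± 0.15 (adjusted p = 0.0319, of a range of 0.0319 to 0.883 over its alternatives). With a term for label numbers from 12, Usp18 differed by 0.09 and Herc6 by 0.19, turning their direction. Within the samples numbered 12 and above, where the comparison rests on 1 vehicle library, Uba7 differed by -0.05 ± 0.19 and Isg15 by 0.25 ± 0.16.

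**Figure D2:**
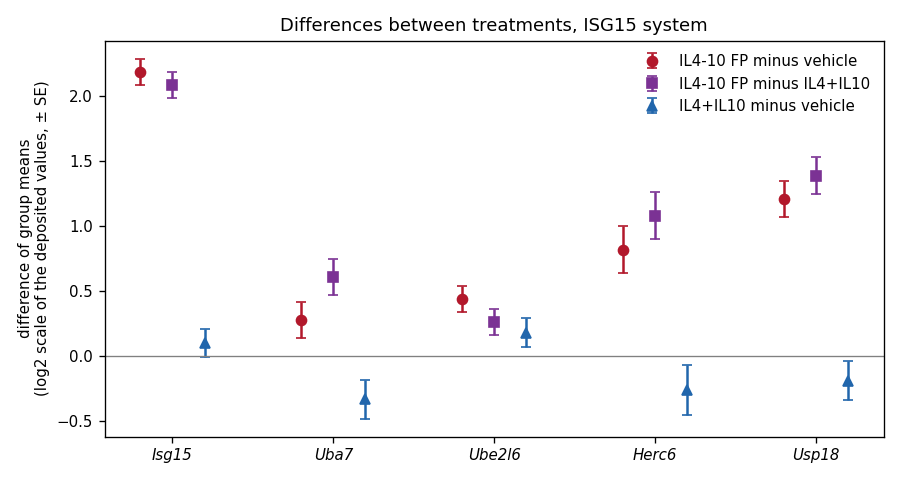
Differences between group means on the deposited log2 scale (vertical axis, ± SE of limma) for the 5 genes, with IL4-10 FP minus vehicle as circles, IL4-10 FP minus IL4+IL10 as squares and IL4+IL10 minus vehicle as triangles. Isg15 reaches 2.19 and 2.09 in the comparisons with IL4-10 FP, and the differences of IL4+IL10 from vehicle run from -0.33 to 0.18.

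The members took a different order of abundance with IL4-10 FP. Lengths here join the exons of all annotated transcripts, 15 for Uba7 and 6 for Herc6 but 1 for Isg15. The order between genes thus depends on the annotation, while a change of 1 gene between groups does not. Per kilobase of exon, the scaled level of Isg15 was 838 ± 129 with IL4-10 FP (SD, n = 6), above Ube2l6 at 383 ± 39.8, Usp18 at 121 ± 20.9, Herc6 at 70.7 ± 29.1 and Uba7 at 43.4 ± 9.76. The libraries of Isg15 and Ube2l6 and those of Ube2l6 and Usp18 did not overlap there, while Usp18 and Herc6, and Herc6 and Uba7, did. With IL4+IL10 the level per kilobase was 315 ± 74.7 for Ube2l6 and 96.8 ± 25.7 for Isg15, and with vehicle it was 268 ± 36.3 and 83.1 ± 22.6. In both groups Ube2l6 lay above Isg15 and Isg15 above the other 3 genes in every library; those 3 overlapped, at 23.2 to 25.4 with IL4+IL10 and 33.0 to 34.0 with vehicle on average.

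The ratio of the modifier to its E2 can be read within each library. The size of such a ratio depends on the same annotated lengths, while its comparison between groups does not. Per length, Isg15 stood at 1.83 to 2.79 times Ube2l6 in the 6 IL4-10 FP libraries (median 2.07), at 0.217 to 0.427 in the IL4+IL10 libraries (median 0.287) and at 0.255 to 0.464 in the vehicle libraries (median 0.271). Isg15 relative to Uba7, the E1, stood at 13.7 to 27.8 with IL4-10 FP, 3.05 to 6.62 with IL4+IL10 and 1.58 to 4.88 with vehicle. Isg15 relative to Usp18, the protease, stood at 4.85 to 10.4 with IL4-10 FP, 2.05 to 5.17 with IL4+IL10 and 1.32 to 4.78 with vehicle. The first and second of these ratios did not overlap between IL4-10 FP and the other groups, while the third overlapped between IL4-10 FP and IL4+IL10.

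**Figure D3:**
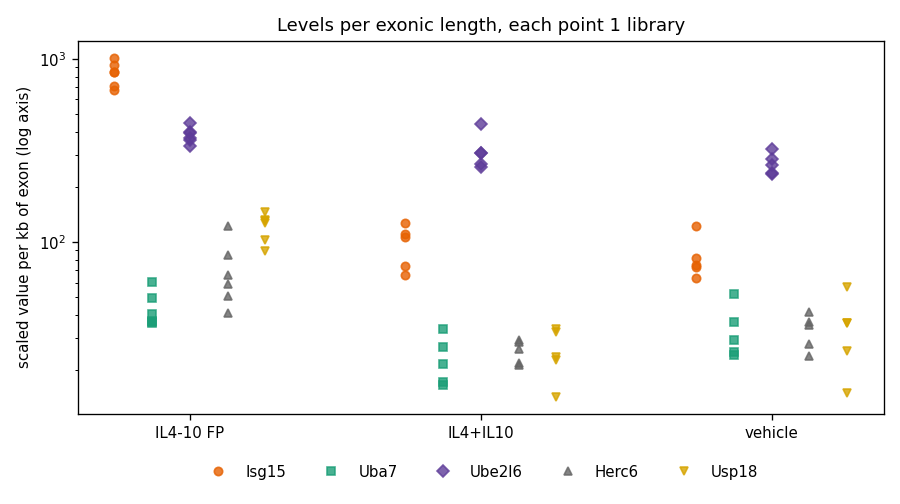
Scaled value per kilobase of exon (log axis) of the 5 genes in each library of IL4-10 FP, IL4+IL10 and vehicle, 1 point a library. With IL4-10 FP the Isg15 points (677 to 1015) lie above those of Ube2l6 (333 to 449), and in the other groups below them.

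Within the IL4-10 FP group the members did not share 1 order of libraries. Isg15 was highest in replicates 6 and 5, at 767 and 703, which are the libraries with label numbers from 12, and Herc6 was lowest in these 2. Replicate 1 had the highest Herc6, Ube2l6 and Uba7, and replicate 2 the highest Usp18. Across the 6 libraries on the log2 scale, Isg15 correlated with Usp18 at Pearson r = -0.13 (exact permutation p = 0.838; Spearman rho = -0.31, exact permutation p = 0.564), with Uba7 at r = -0.27 (0.629; rho = -0.31, 0.564), with Ube2l6 at r = 0.16 (0.767; rho = 0.14, 0.803) and with Herc6 at r = -0.37 (0.479; rho = -0.54, 0.297). None of the 4 pairs passed an exact permutation test, two-sided, with adjusted p-values of 0.838 for r and 0.752 to 0.803 for rho; the smallest p that 6 libraries allow is 0.00278. Without the 2 libraries farthest from the Isg15 median, replicates 2 and 3, the 4 values of r were -0.27, -0.68, -0.38 and -0.69 in the same order, over 4 libraries. With the group means subtracted, over all 16 libraries, r was 0.73 for Uba7 with Ube2l6 and 0.63 for Usp18 with Herc6, and -0.24 to 0.22 for Isg15 with the other 4.

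The genes whose pattern was most like that of the system over the 16 libraries were chosen by the highest r with the mean of the standardised values of the 5 members. Among 12799 tested genes with an established symbol these were Gbp3 (r = 0.98), Rtp4, Zbp1 and Gbp2b (0.97 each), Gbp9 (0.96), and Tor3a, Irf7, Ifi204, Oas1a and Slfn4 (0.95 each). Most of these are known as interferon-induced genes, such as the guanylate-binding proteins and Zbp1, a sensor of Z-form nucleic acids. Gbp3 averaged a scaled value of 1758 with IL4-10 FP, 418 with IL4+IL10 and 542 with vehicle, and Zbp1 477, 54.0 and 108 in the same groups. The difference between groups makes up much of such an r. With group means subtracted the highest were Ifi47 (0.88), an interferon-induced GTPase, Ly96 (0.86), the partner of Tlr4 in sensing endotoxin, and Zbp1, Ctsh, a lysosomal protease, and Mpeg1, a pore-forming protein of macrophages (0.85 each).

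Of the pathway that induces the system, most of the 11 interferon ligand genes looked up were at the floor. Of 11 ligand genes 8, Ifnb1 among them, stood at a scaled value of 1 in all 16 libraries, and Ifna2 and Ifnl3 did not exceed 2. Ifng, the type II interferon, stood at 3, 3, 3, 5, 5 and 6 in the IL4-10 FP libraries and at 1 in every IL4+IL10 and vehicle library; it lay below the filter and was not tested. Transcripts of these ligands made outside the ganglion or before the 6 hours were not measured.

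Of 7 genes of the type I interferon receptor and its transcription factor complex ISGF3, 2 rose and 1 fell with IL4-10 FP against vehicle, with a median of 0.09. Irf9, the DNA-binding part of ISGF3, rose by 0.47 ± 0.11, while the kinase Tyk2 fell, with a difference of -0.24 ± 0.07. This list and those that follow were, like the members, chosen with earlier results known, so their counts are descriptions. Against IL4+IL10, 3 of 7 rose and 1 fell, with Irf9 at 0.73 ± 0.11, Stat2, another part of ISGF3, at 0.37 ± 0.10 and the kinase Jak1 at -0.26 ± 0.07. The receptor chains did not pass against vehicle, with Ifnar1 at 0.09 ± 0.08 and Ifnar2, which Usp18 binds, at 0.08 ± 0.10. With IL4+IL10 against vehicle 1 rose, Jak1 (0.32 ± 0.08), and 1 fell, Tyk2 (-0.33 ± 0.07). Of all tested genes 12% were called higher and 13.7% lower with IL4-10 FP than with vehicle. Against IL4+IL10 7.35% were higher and 22.2% lower. With IL4+IL10 against vehicle 24.2% were higher and 12.3% lower.

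Of 7 interferon regulatory factors 6 were tested, and of these 1 rose against vehicle, Irf7, the factor that amplifies the response. Irf7 had scaled values of 447 to 764 with IL4-10 FP, 62 to 99 with IL4+IL10 and 54 to 144 with vehicle. Its log2 difference with IL4-10 FP was 1.65 ± 0.12 from vehicle and 1.89 ± 0.12 from IL4+IL10, against which Irf1, Irf5 and Irf8 rose as well. With IL4+IL10 against vehicle 0 of 6 passed in limma, and 0 had an unadjusted p under 0.05. Of all tested genes 36.5% and 45.9% did so. With IL4-10 FP 12% were called higher against vehicle and 7.35% against IL4+IL10.

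Of 15 genes whose proteins are reported to carry ISG15, 7 rose and 0 fell with IL4-10 FP against vehicle, with a median of 0.09. Among them were Ifit1, which binds foreign RNA (1.45 ± 0.28), Ddx58, the RNA sensor RIG-I (0.64 ± 0.14), and Mx2 (0.53 ± 0.13). The kinase Eif2ak2, Mx1 and the autophagy gene Becn1 also rose, by 0.45, 0.87 and 0.20, whereas Irf3 (-0.02 ± 0.07) and Trp53 (-0.00 ± 0.07) did not pass. Of all tested genes 12% were called higher with IL4-10 FP than with vehicle. Against IL4+IL10 5 of the 15 rose and 2 fell, beside 7.35% and 22.2% of all tested genes. With IL4+IL10 against vehicle 4 rose and 1 fell, beside 24.2% and 12.3%. Of the chains of LFA-1, the receptor reported for extracellular ISG15, Itgb2 rose with IL4-10 FP against vehicle by 0.99 ± 0.23 and Itgal differed by 0.37 ± 0.15 without passing. Against IL4+IL10 both rose, by 1.06 ± 0.23 and 0.55 ± 0.15. Of the 6 partners of Usp18, 0 were called with IL4-10 FP against vehicle by limma, and 0 had an unadjusted p under 0.05. Of all tested genes 12% were called higher and 13.7% lower there. Against IL4+IL10 1 of the 6 rose, Stat2, and 1 fell, Map3k7 (-0.31 ± 0.08). With IL4+IL10 against vehicle 1 rose, Ikbkg (0.19 ± 0.06), and 0 fell.

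Other enzymes are also reported to attach or remove ISG15. Of 8 such genes 0 rose and 1 fell with IL4-10 FP against vehicle, Usp2 (-0.37 ± 0.07), and Trim25, an alternative ligase, differed by 0.30 ± 0.12 without passing. Their median was -0.00. Of the other 4 HERC genes 0 rose and Herc2 fell by 0.28, while Herc1, Herc3 and Herc4 did not pass. Against IL4+IL10, Usp2, Usp13, Usp14, Herc1 and Herc3 fell and 0 of the 12 rose. Of all tested genes, 12% were called higher and 13.7% lower with IL4-10 FP than with vehicle. Against IL4+IL10 7.35% were called higher and 22.2% lower. With IL4+IL10 against vehicle Usp14 (0.42 ± 0.07), Usp16 (0.31 ± 0.09) and Herc3 (0.29 ± 0.08) rose and Usp21 (-0.26 ± 0.08) fell. Of all tested genes 24.2% were called higher and 12.3% lower in that comparison.

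Parallel conjugation systems, which use enzymes of the same kinds for other ubiquitin-like proteins, had medians between -0.10 and 0.21 with IL4-10 FP against vehicle. With IL4-10 FP against vehicle 2 of 15 SUMO genes, 5 of 10 NEDD8 genes, 3 of 8 UFM1 genes and 4 of 15 ATG8 and ATG12 genes rose, and 0 fell in each. Of 9 ubiquitin genes and enzymes 2 rose, Rps27a (0.47 ± 0.08) and Ubb (0.52 ± 0.12), while Uba1, the E1 of ubiquitin (0.13 ± 0.09), and Ube2l3, a close relative of Ube2l6 (0.06 ± 0.09), did not pass. In IL4+IL10 against vehicle more of them were called: 5 SUMO, 8 NEDD8, 5 UFM1, 8 ATG8 and ATG12 and 3 ubiquitin genes rose, with 1 SUMO and 1 ATG8 and ATG12 gene lower. Nedd8, the modifier of its system, rose there by 0.55 ± 0.06. With IL4-10 FP against IL4+IL10, 6 SUMO, 5 NEDD8, 3 ATG8 and ATG12 and 2 ubiquitin genes fell, and Ddrgk1 of the UFM1 list rose. The comparisons with vehicle share the vehicle libraries. The share of all tested genes called higher than with vehicle was 12% with IL4-10 FP and 24.2% with IL4+IL10. Called lower than with vehicle were 13.7% with IL4-10 FP and 12.3% with IL4+IL10. With IL4-10 FP against IL4+IL10, 22.2% of all tested genes were called lower and 7.35% higher.

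**Figure D4:**
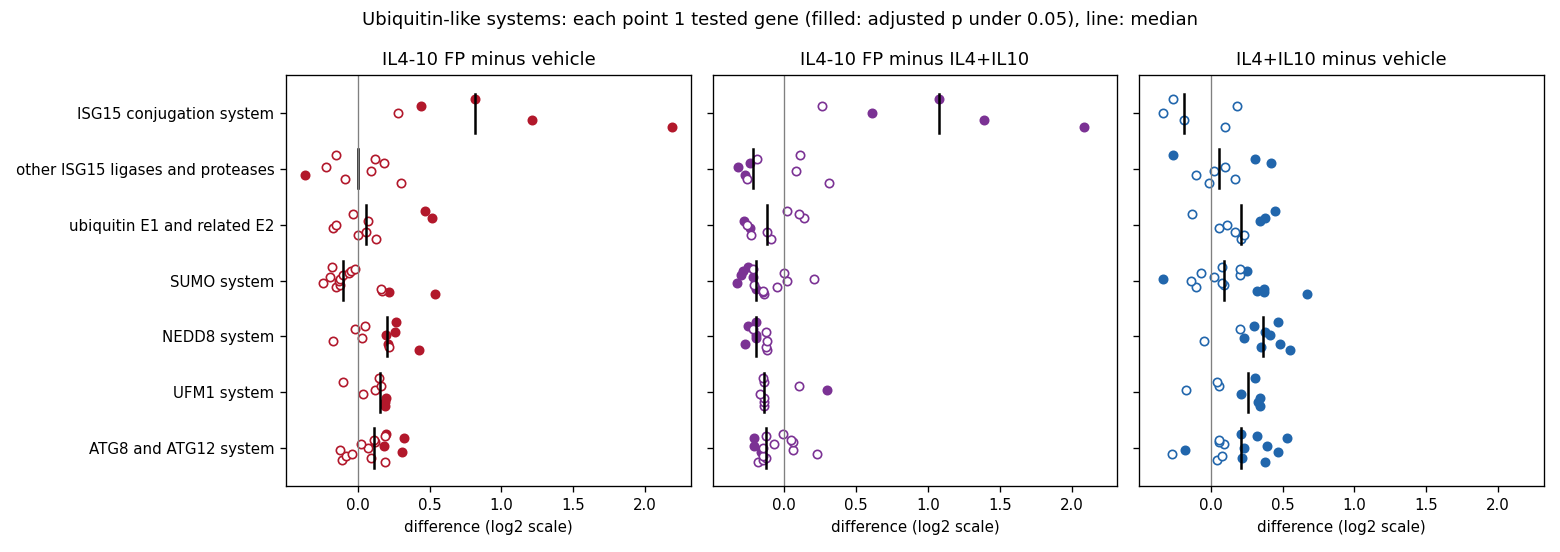
Differences on the deposited log2 scale (horizontal axes) of each tested gene of the ISG15 system and of 6 lists of related enzymes and modifiers, for IL4-10 FP minus vehicle, IL4-10 FP minus IL4+IL10 and IL4+IL10 minus vehicle; filled points have an adjusted p under 0.05 and vertical lines are medians. The ISG15 system has medians of 0.82, 1.08 and -0.19, and the medians of the parallel systems lie between -0.10 and 0.21 with IL4-10 FP against vehicle.

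Markers of some immune cells were higher with IL4-10 FP, as the members were. Of 13 macrophage and monocyte markers 8 rose and 0 fell with IL4-10 FP against vehicle (median 0.44), beside 12% of tested genes called higher. None of the 13 markers was at the floor. Their summed scaled value ran from 4805 to 11472 with IL4-10 FP, from 4130 to 5504 with IL4+IL10 and from 3019 to 5350 with vehicle. Replicate 1 of IL4-10 FP, with the highest Herc6, Ube2l6 and Uba7, had the 11472, and it also had the highest sum of neutrophil markers, 10465 beside 2698 to 5661 in the other 5. Of 9 tested neutrophil markers 2 rose, Csf3r and Cxcr2, and 0 fell against vehicle. Of 5 B cell markers 0 rose and 1 fell, Ighm (-0.25 ± 0.08), with a median of -0.12. Replicate 2 had the lowest macrophage sum of its group, 4805, within the vehicle range, and in it Isg15 stood at 534 and Usp18 at 406. Only 2 of 10 T and NK cell markers, Gzma and Lck, passed the filter. With IL4-10 FP against vehicle they rose by 1.08 ± 0.11 and 0.42 ± 0.09. Gzma averaged 94.5 with IL4-10 FP, 28.6 with IL4+IL10 and 9.8 with vehicle, beside a filter at 31.8. It passed only through IL4-10 FP, so nothing is read from its rise there. With IL4+IL10 against vehicle Gzma differed by 0.39 ± 0.11. Both of those means lay below the filter, so nothing is read from that difference either. The sum of all 10 was 157 to 444 with IL4-10 FP, 129 to 215 with IL4+IL10 and 103 to 141 with vehicle. Of 5 markers of plasmacytoid dendritic cells 2 were tested, Bst2 and Tcf4. With IL4-10 FP against vehicle Bst2, which interferons also induce, rose by 0.92 ± 0.12, and Tcf4 differed by -0.14 ± 0.08 without passing. Against IL4+IL10 Bst2 rose by 1.2 ± 0.12 and Tcf4 fell, with a difference of -0.35 ± 0.08. Siglech stood at 14 to 25 with IL4-10 FP and 9 to 25 with vehicle. The sum of the 5 was 1157 to 1265 with IL4-10 FP, 977 to 1259 with IL4+IL10 and 931 to 1115 with vehicle. The T cell genes Cd3d and Cd3e stood at 5 to 16 and 4 to 16 with IL4-10 FP, 4 to 13 and 2 to 11 with IL4+IL10, and 2 to 3 and 3 to 9 with vehicle. The part of these cells in the members' differences was not tested. Sensory neuron markers, which check the tissue, summed to 258197 to 414140 with IL4-10 FP, 286162 to 361792 with IL4+IL10 and 274341 to 357879 with vehicle, so the groups overlapped. By gene, 1 of these 11 markers rose and 1 fell with IL4-10 FP against vehicle. Against IL4+IL10 0 rose and 2 fell, and with IL4+IL10 against vehicle 3 rose and 1 fell. Satellite glia markers summed to 42955 to 78393 with IL4-10 FP, 50469 to 59897 with IL4+IL10 and 42070 to 60932 with vehicle, also overlapping. Of these 6 genes 4 fell and 0 rose with IL4-10 FP against IL4+IL10, beside 22.2% of tested genes called lower. Against vehicle 1 fell and 0 rose, beside 13.7% called lower. With IL4+IL10 against vehicle 4 rose and 0 fell, beside 24.2% called higher. Of 6 Schwann cell markers 0 passed with IL4-10 FP against vehicle. Gfap, an intermediate filament of astrocytes and reactive glia kept in a list of spinal cord markers, had scaled values of 96 to 1448 with IL4-10 FP, 21 to 56 with IL4+IL10 and 19 to 737 with vehicle. It was called higher with IL4-10 FP than with IL4+IL10 (1.96 ± 0.57) and was not called against vehicle (0.88 ± 0.57). The summed spinal cord list was highest in IL4-10 FP replicates 1 and 2, at 1463 and 832, and there it was mostly Gfap. These libraries also had the highest Herc6. Vehicle replicate 1 came next, at 747, with Herc6 at 259 beside a vehicle mean of 307. Mog, Olig1 and Olig2 did not exceed 3 in any library. The part of glia in the members' differences was not tested.

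The label numbers of the samples split the groups unevenly, with all IL4+IL10 libraries, 2 IL4-10 FP libraries and 1 vehicle library numbered 12 and above; what the numbers stand for is not given. Within numbers 1 to 8, Isg15 was 512 to 643 in 4 IL4-10 FP libraries and 55 to 92 in 4 vehicle libraries, and within the later numbers 703 and 767 with IL4-10 FP, 50 to 96 with IL4+IL10 and 48 in the vehicle library. The differences of IL4-10 FP from vehicle within numbers 1 to 8 were 2.05 ± 0.10 for Isg15, 1.15 ± 0.13 for Usp18, 0.97 ± 0.18 for Herc6, 0.43 ± 0.09 for Ube2l6 and 0.29 ± 0.17 for Uba7. Within the later numbers IL4-10 FP differed from IL4+IL10 by 2.28 ± 0.12 for Isg15, 1.27 ± 0.14 for Usp18 and 0.64 ± 0.12 for Herc6.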

How the data were processed

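RNA of 16 libraries was sequenced after polyA selection, per the labels' protocols. Per the submitters' processing notes, the authors used FastQC, STAR, HTSeq and DESeq2 with build GRCm38; versions are not given. The deposited table holds variance-stabilised values on a log2 scale; the scaling before the transform is not given in the sources used here. The inverse of such a transform, with 2 parameters set from 60 of the 11441 distinct values, the lowest ones, gave whole numbers for 100% of the values (within 0.01), called scaled values here. The authors deposited the GC content of each gene in percent. The deposited p-value columns name no comparison and were not used.

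Genes were tested from a mean log2 value of 6.99, which is 1 more than the table's minimum and a scaled value of 31.8. Limma 3.58.1 in R 4.3.3 (lmFit, eBayes with trend and robust) was fitted to all 16 libraries, two-sided, with Benjamini-Hochberg adjustment over the 13385 tested genes and a threshold of 0.05; it was tested on simulated data. Lists are described by counts and medians. Exonic lengths are from GENCODE M21 (GRCm38), matched for 36429 genes. Correlations used exact permutation tests in Python 3.11.15. The members and 27 gene lists were chosen with earlier results of these data known. Named genes are the members, up to 4 genes of a list with the lowest p, markers at the floor and the 10 genes most alike; other list members named were chosen after their values were seen. Alternatives were other filters, normalizations, moderation, group subsets, covariates, scale and the omission of each library; removal of GC and length trends was chosen after seeing the data. Some members of the lists that were counted are not reported by name here.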

Additional observations from a re-analysis of the deposited data

How the results depend on the processing

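The members called with IL4-10 FP numbered 3 to 5 against IL4+IL10 over all alternatives. Against vehicle they numbered 4 to 5, apart from the fit with 1 vehicle library. Isg15, Usp18 and Herc6 were among them in each of these fits. The fits reuse the libraries assumed to have guided the choice of members, so nothing is read from these counts. The differences of Isg15, Usp18 and Herc6 from vehicle ran from 2.00 to 2.53, 1.08 to 1.56 and 0.67 to 0.97 on the deposited scale. On the scale of log2 of the scaled value plus 1 they were 3.33, 1.93 and 1.03. With IL4+IL10 against vehicle the count was 0 throughout except without IL4+IL10 replicate 1, where it was 1 (0 to 1 over the omissions). The direction there was not stable for 3 members: with the late label number as covariate Usp18 differed by 0.09 and Herc6 by 0.19, among numbers from 12 alone by 0.30 and 0.06, and with GC and length trends removed plus that covariate Uba7 by 0.24; the cause was not tested. Counts of all genes called moved more. IL4-10 FP against vehicle gave 2163 among numbers 1 to 8 and 247 among numbers from 12 (fewer libraries), beside 3450; 47.4% and 64.8% of these calls were higher, beside 46.7%. IL4+IL10 against vehicle gave 764 among numbers from 12 and 1680 with trends removed plus the covariate, beside 4891; 43.6% and 54.2% of these calls were higher, beside 66.2%, so that among numbers from 12 most calls were lower. IL4-10 FP against IL4+IL10 gave 2363 with quantile normalization, 1568 with trends removed and 911 with the covariate in addition, beside 3950, and 41.3%, 42.1% and 49.3% of the calls were then higher, beside 24.9%. Over the omissions this count ran from 1999 to 5247, with 1999 without IL4+IL10 replicate 2, 2496 without IL4+IL10 replicate 5 and 2563 without IL4-10 FP replicate 4. The correlation of Isg15 with Usp18 within IL4-10 FP ran from -0.55 to 0.25 over the omissions, at 0.19 without replicate 2 and 0.25 without replicate 5. Whether the replicate numbers pair the samples was not settled. Same-numbered libraries correlated at -0.196 to 0.598 in their deviations from group means. In the 3 comparisons 3, 5 and 2 of 10 libraries correlated best with their own number, the 5 in IL4+IL10 against vehicle. With the replicate block 3216, 5195 and 3429 genes and 4, 0 and 4 members were called, for IL4-10 FP against vehicle, IL4+IL10 against vehicle and IL4-10 FP against IL4+IL10. Among numbers from 12 the lone vehicle library is assumed to vary like the other groups. Read depth is unknown, so no counting error can be given for the low values of Ifng or the T cell markers.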
